A study of Mus musculus with 10 samples.

Results

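The wildtype neighbours of mutant cells were followed here from 4 days to 2 weeks after induction. They are YFP+ epithelial cells of Sftpc-CreERT2; Red2Kras mice, in which tamoxifen-activated Cre, driven by the surfactant protein C promoter, recombines a multicolour allele in alveolar type 2 (AT2) cells of the distal lung. In these lungs RFP+ cells are mutant and YFP+ cells are wildtype, so that at both times the YFP+ cells shared their lungs with mutant cells. All mice were adult and received 3 doses of tamoxifen at 0.2 mg per g of body weight. EpCAM+YFP+ cells were sorted, with at least 2 lungs pooled in each sample, and sequenced as single cells. The question was how the transcriptome of wildtype cells differs between 2 weeks (2 libraries) and 4 days (2 libraries). The remaining libraries of the series were RFP+ mutant cells from Red2Kras lungs (2 at 4 days and 2 at 2 weeks) and 1 RFP+ and 1 YFP+ library of Sftpc-CreERT2; R26R-Confetti lungs, in which both colours are wildtype and which the methods place at 2 weeks.

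Members were the barcodes of the 4 YFP+ Red2Kras libraries with at least 1000 genes, at most 50000 unique molecular identifiers (UMIs, which count captured RNA molecules), at most 15% mitochondrial UMIs and no UMI of Ptprc, the pan-leukocyte antigen CD45. They came to 10259 cells of 30599 kept in the series, with 1826 and 2989 in the 4-day libraries and 4306 and 1138 in the 2-week libraries. UMIs were summed per library, so that the library and not the cell is the replicate. The sums were 11607230 and 19346177 UMIs at 4 days and 26785811 and 8163707 at 2 weeks. The 4-day samples were collected before tamoxifen was fully washed out, so time since induction and exposure to tamoxifen cannot be told apart. The labels do not say whether libraries of a group came from separate mice, so p-values measure the spread between libraries of a group, which may in part be technical. That spread was estimated jointly over all pairs of Red2Kras libraries, the RFP+ pairs included. The shares of female cells given below differ between the libraries of each time, so these were not equal draws from the same pool of mice.

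AT2 cells make surfactant and are the stem cells of the alveolus: they divide and give rise to the thin alveolar type 1 (AT1) cells of gas exchange. After injury or inflammation some pass through a primed state with acute-phase genes and then through a keratin-rich, damage-associated transient progenitor (DATP) state on the way to AT1. Tumours that arise from AT2 cells can take up parts of this regenerative course and release signals, such as ligands of the EGF receptor, that reach the cells around them. The gene lists below follow these states and signals in the wildtype neighbours.

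Sftpc, encoding surfactant protein C and the defining marker of the labelled cell type, stood at 136481 and 162153 CPM at 4 days and 134624 and 171347 CPM at 2 weeks (CPM, UMIs per 1000000 of the library after TMM scaling). Where levels are given below as 2 pairs, the first pair is 4 days and the second 2 weeks, each with replicate 1 before replicate 2. The 4 libraries were not alike in other respects. Of cells with sex-linked UMIs, 83.7% were female in 4-day replicate 1 and 26.4% in 2-week replicate 1, against 0.179% and 0.471% in the replicates numbered 2. In 2-week replicate 2, 34.8% of barcodes that passed the quality limits held a Ptprc UMI and were left out, against 3.13% to 4.55% in the other 3. In the kept cells, 15 of 16 alveolar macrophage markers were found in at least 1 library, Ptprc being 0 by the filter, and their levels summed to 45.5 and 172, then 101 and 2426 CPM, with Ear1, Ear2, Marco and Siglecf at 0 in 4-day replicate 1. Endothelial markers summed to 529 and 64.1 CPM and then 84.9 and 69.5 CPM, mesenchymal markers to 246 and 22.2 CPM and then 74.6 and 44.9 CPM, and airway secretory markers to 9422 and 7275 CPM and then 2179.8 and 17312 CPM. Pairs of these 4 libraries shared between 0 and 2 kept barcodes, and a YFP+ library shared at most 11 with any other library. Over 14856 genes, the correlation of log2 CPM was 0.923 between the 4-day libraries and 0.931 between the 2-week libraries, and the highest of the 6 pairs, 0.971, joined 4-day replicate 2 with 2-week replicate 1. Fewer cells of a type and less RNA per cell cannot be told apart in such sums.

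No gene passed the test across all genes. With edgeR's quasi-likelihood test and Benjamini-Hochberg adjustment, 0 of 14856 genes (0%) had an adjusted p under 0.05 between 2 weeks and 4 days. At an unadjusted p under 0.05 there were 147 genes higher at 2 weeks (0.989% of those tested) and 38 lower (0.256%). DESeq2 called 4 genes, all higher at 2 weeks, and had 370 at an unadjusted p under 0.05. The median absolute difference between the 2 group means was 0.185 on the log2(CPM + 1) scale, against a median gap of 0.327 between the 4-day libraries and 0.345 between the 2-week libraries. For 10273 genes (69.2%) the gap between the 4-day libraries was wider than the difference between the times. With 2 libraries against 2, an exact permutation test over samples cannot give a two-sided p below 0.33. The values below therefore describe 4 libraries. A gene is called apart when both 2-week libraries lie on the same side of both 4-day libraries: 1464 genes (9.85%) were apart and higher at 2 weeks, and 1696 (11.4%) were apart and lower. Each list is read against these shares. The lists and their members were chosen with earlier results of these data known, so a share that departs from these is no independent evidence.

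**Figure D1:**
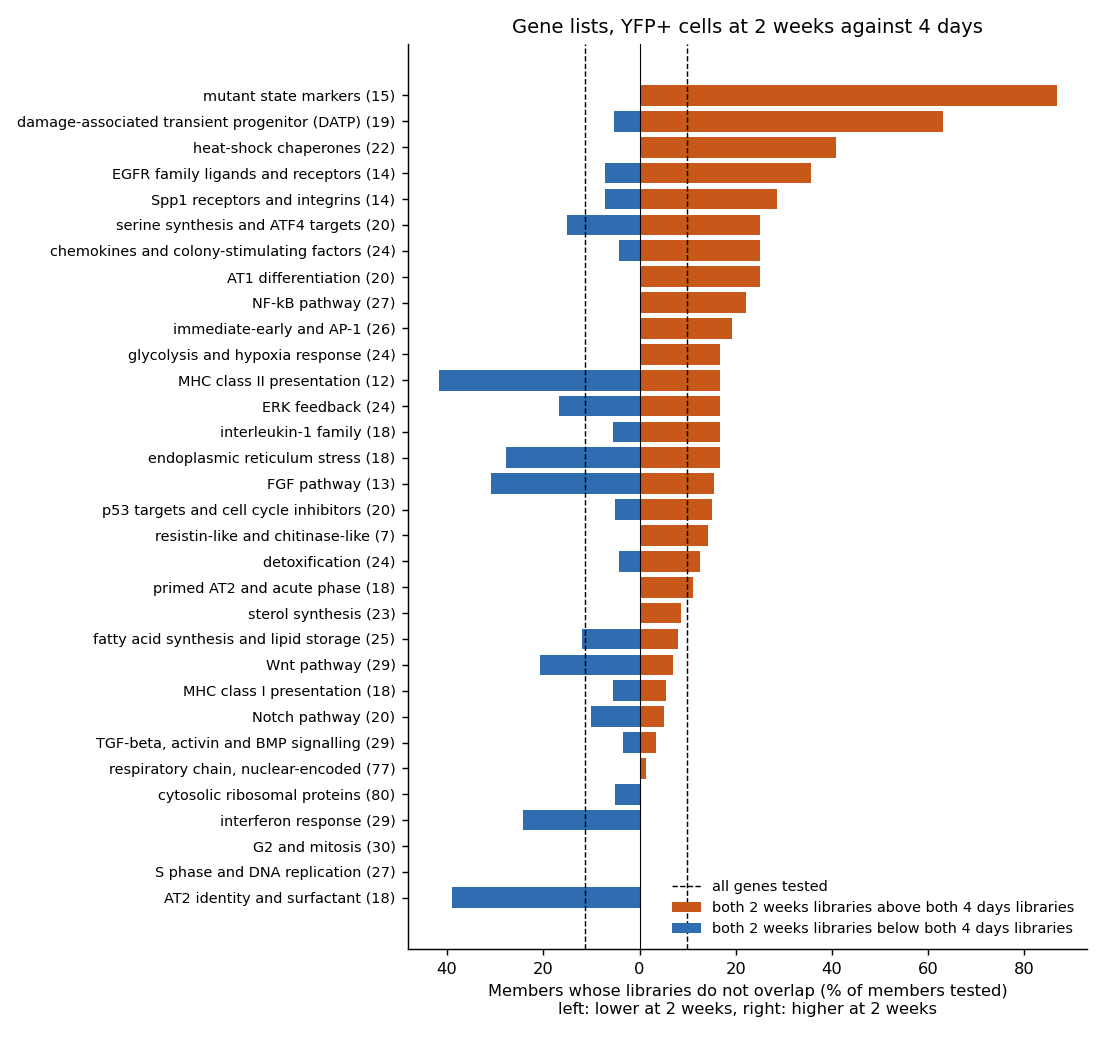
Share of each gene list (in percent of members tested, with the number tested in brackets) whose libraries do not overlap, with members higher at 2 weeks drawn to the right and lower to the left. The dashed lines mark the shares over all 14856 genes, 9.85% higher and 11.4% lower, and the lists of mutant state markers, DATP genes and heat-shock chaperones reach farthest to the right.

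Apoa1, encoding apolipoprotein A-I, had the smallest p of all genes (adjusted p = 0.63, the lowest of the comparison). It stood at 0.339 and 0.360 CPM at 4 days and 5.01 and 6.19 CPM at 2 weeks, a log2 difference of 3.97 ± 0.46 (SE), from 4, 6, 129 and 43 UMIs in the 4 libraries in turn. DESeq2 gave it an adjusted p of 4.0e-05. Its UMIs sat in 4 and 6 cells at 4 days and in 38 and 9 cells at 2 weeks, and without the cells with mutant state markers described below it was at 0.268 and 0.360, then 1.31 and 0.348 CPM, with overlapping groups. The other genes that DESeq2 called were Dlk1 (adjusted p = 0.0041), Gzme (0.0128) and Sprr2a3 (0.0141), a cornified envelope gene with 0, 0, 55 and 21 UMIs in the 4 libraries, at least 22.0-fold higher at 2 weeks against a floor of 3 counts over the group.

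Among genes with a mean of at least 5 CPM and libraries apart, those of smallest p were taken as examples, and all of them missed the threshold (adjusted p = 1). Fam212b was at 6.86 and 8.53 CPM at 4 days and 17.6 and 16.1 CPM at 2 weeks (log2 difference 1.13 ± 0.33, with the SE after ± throughout), and Ffar4, a receptor for long-chain fatty acids, at 8.73 and 11.4, then 15.6 and 24.5 CPM (0.98 ± 0.30). The 4-day libraries were close to each other in both genes, and 2-week replicates differed most in Ffar4. Mrps6, a mitochondrial ribosomal protein, was at 18.7 and 24.6, then 34.3 and 38.8 CPM (0.75 ± 0.23). Il18, an interleukin-1 family cytokine, was at 0.932 and 1.80, then 2.49 and 55.0 CPM, and Tff1, a trefoil factor, was listed at 0 and 0, then 0.932 and 43.2 CPM. For both, 2-week replicate 2 alone carried most of the level, and the Tff1 UMIs lay in 3 and 5 cells of the 2-week libraries. Without cells holding 3 or more UMIs of other cell types that library had 3.51 CPM of Il18 and 0 of Tff1. Gm26825, a predicted gene, was at 1.52 and 0.0601, then 5.71 and 17.3 CPM. Dlk1, Gzme and Cryab, chosen by the same rule, are given with their lists below.

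In the other direction, 10 genes chosen by the same rule were lower in both 2-week libraries. Bex4 was at 360.2 and 329 CPM at 4 days and 193 and 149 CPM at 2 weeks (log2 difference -1.01 ± 0.40). Adamts1, a secreted metalloprotease, was at 60.7 and 64.1, then 36.5 and 17.7 CPM (-1.19 ± 0.48). Smc1a, a cohesin subunit, was at 48.4 and 42.2, then 33.9 and 26.5 CPM (-0.58 ± 0.23). These 3 genes had the lowest value in 2-week replicate 2. Nr1d1, the circadian repressor REV-ERB alpha, was at 24.3 and 14.1, then 10.3 and 7.19 CPM (-1.12 ± 0.36). The remaining 6 genes of smallest p were Igsf3, Acap2, Elk3, Rreb1, Zcchc3 and Tbcel, with log2 differences of -0.81 ± 0.30, -0.61 ± 0.24, -0.67 ± 0.27, -0.72 ± 0.29, -0.75 ± 0.30 and -0.64 ± 0.26.

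AT2 identity genes kept high levels, and where their libraries were apart they were lower at 2 weeks. Of 18 genes, 0 were apart and higher and 7 were apart and lower (38.9%), with a list median of -0.16 on the log2 scale against -0.02 over all genes. The abundant secreted products overlapped between the times: Sftpa1, encoding surfactant protein A, was at 31943 and 41006 CPM at 4 days and 33595 and 31131 CPM at 2 weeks, Lyz2 at 38059.9 and 30512, then 34215 and 29402 CPM and Cxcl15 at 11371 and 17938, then 12480.2 and 12518 CPM. Slc34a2, the phosphate transporter of AT2 cells, was at 2514 and 3525, then 2397 and 2415 CPM, and Lamp3, a lamellar body protein, at 1146 and 1131, then 1011 and 758 CPM. Abca3, which pumps lipid into lamellar bodies, was at 509.9 and 553, then 459.8 and 422 CPM. In Slc34a2 the 2-week libraries were nearly equal, and 4-day replicate 2 stood above the rest. Among cells called male (a Y-linked UMI and none of Xist) 2 of the 18 genes were apart and lower (11.1%, against 10.6% of all genes) and the list median was -0.06, as it was over all cells without 4-day replicate 2. Without the cells with mutant state markers 4 of the 18 were apart and lower (22.2%, against 11.7%). With at least 2000 genes and at most 30000 UMIs per cell it was also 4 (against 11.1%), and after thinning each cell to 2000 UMIs it was 7 (38.9%, against 11.3%).

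The 7 genes that were apart include 2 that encode transcription factors. Etv5, an ETS factor that maintains AT2 cells, was at 330.3 and 346 CPM at 4 days and 256 and 222 CPM at 2 weeks (-0.50 ± 0.45), and Cebpa at 232 and 188, then 159 and 178 CPM. Pla2g1b, a secreted phospholipase, was at 413 and 418, then 305 and 237 CPM (-0.61 ± 0.41). Lpcat1, which remodels surfactant lipid, was at 791 and 928, then 757 and 766 CPM. Among cells called male Etv5 overlapped, at 238 and 341, then 253 and 205 CPM. None of the 7 passed the test, and unadjusted p-values ran from 0.17 for Pla2g1b to 0.6 for Lpcat1.

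AT1 genes were mixed, and where their libraries were apart they were higher at 2 weeks. Of 20 genes 5 were apart and higher (25.0%, against 9.85% of all genes), 0 were apart and lower (against 11.4%), and the list median was 0.01. Without cells holding 3 or more UMIs of other cell types 6 of 18 were higher (33.3%, against 11.4%) and 0 lower. Among cells called male it was 3 of 18 (16.7%, against 10.8%) and 0 lower. After thinning each cell to 2000 UMIs 4 of 19 were higher (21.1%, against 10.4%) and 1 lower. Ager, the receptor for glycation end products on AT1 cells, was at 898 and 902 CPM at 4 days and 1026 and 1255 CPM at 2 weeks (0.34 ± 0.45). Aqp5, a water channel, was at 481 and 419, then 555 and 944 CPM (0.74 ± 0.45). Pdpn, the AT1 surface protein podoplanin, was at 4.32 and 4.92, then 9.12 and 17.7 CPM (1.51 ± 0.50, unadjusted p = 0.017). In all 3 the highest value was that of 2-week replicate 2. The list median was 0.69 without 4-day replicate 1 and -0.21 without 2-week replicate 1. The other abundant members, Cldn18 and Emp2, were at 597 and 514, then 474 and 644 CPM and at 219 and 211, then 199.6 and 219 CPM, with overlapping groups.

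Of the AT2, primed AT2, DATP and AT1 lists, the DATP list had the most genes apart and higher. Of 19 members 12 were apart and higher at 2 weeks (63.2%, against 9.85% of all genes), and 1, Mdm2, was apart and lower. No member passed the adjusted test. The median of the list was 0.89 on the log2 scale and ran between 0.50 and 0.88 when each library was left out in turn, with the low end without 2-week replicate 2.

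Of the 4 keratins on the list, Krt8, Krt18 and Krt7 were apart and higher and Krt19 overlapped. Krt8, at chr15:101996698-102004482 (GRCm38, minus strand), was at 287 and 292 CPM at 4 days and 402 and 388 CPM at 2 weeks (log2 difference 0.45 ± 0.32). Its partner Krt18 was at 377 and 329.6, then 514 and 652 CPM (0.72 ± 0.36), and Krt7 at 71.1 and 82.6, then 133 and 411 CPM (1.82 ± 0.79, unadjusted p = 0.052). The replicates of each time lay close together for Krt8, while for Krt7 2-week replicate 2 stood far above replicate 1.

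The EGF receptor ligands on the list showed the same order. Areg, encoding amphiregulin (chr5:91139599-91148432, plus strand), was at 140.2 and 141 CPM at 4 days and 356 and 241 CPM at 2 weeks (1.09 ± 0.40, unadjusted p = 0.027). Hbegf, the heparin-binding ligand, was at 40.1 and 35.4, then 88.6 and 50.5 CPM (0.89 ± 0.36, unadjusted p = 0.042), and Ereg, encoding epiregulin, at 1.69 and 0.240, then 7.53 and 11.5 CPM (3.36 ± 1.06, unadjusted p = 0.015). For Areg and Hbegf the higher 2-week library was replicate 1, and for Ereg it was replicate 2. On the wider list of EGFR family ligands and receptors 5 of 14 were apart and higher and 1 was lower. Besides these 3 ligands they were Btc, at 4.91 and 4.02, then 5.47 and 5.18 CPM, and Epgn, listed at 0 in both 4-day libraries and at 0.311 and 0.144 CPM at 2 weeks. Tgfa, the ligand that was lower, was at 9.23 and 7.75, then 6.72 and 6.47 CPM. Erbb3, a receptor, and Errfi1, an inhibitor of the receptor, overlapped.

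Among the other DATP members, Clu, encoding the secreted chaperone clusterin (chr14:65968483-65981547, plus strand), was at 191 and 354 CPM at 4 days and 663 and 1389.6 CPM at 2 weeks (1.91 ± 0.81, unadjusted p = 0.048). Anxa1 was at 114 and 147, then 185 and 304 CPM (0.90 ± 0.44), and Sfn, encoding the 14-3-3 sigma protein, at 136 and 132, then 249.8 and 159.7 CPM (0.61 ± 0.33). Cldn4, a tight junction protein of the state, was at 2.63 and 5.46, then 9.94 and 40.1 CPM (2.59 ± 1.13). Plaur, the urokinase receptor, was at 8.98 and 6.37, then 9.78 and 77.4 CPM (2.49 ± 1.20), and Fhl2 at 0.339 and 0.3003, then 0.932 and 3.88 CPM. In Plaur the 4-day libraries and 2-week replicate 1 were close, and 2-week replicate 2 stood far above them. Mdm2 and Cdkn1a, both p53 targets, did not follow. Mdm2 was at 22.9 and 19.8, then 19.2 and 18.6 CPM, and Cdkn1a overlapped at 177 and 99.1, then 192 and 138 CPM. Nupr1, Lgals3, Krt19, Itgb6 and Ndrg1 overlapped as well.

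**Figure D2:**
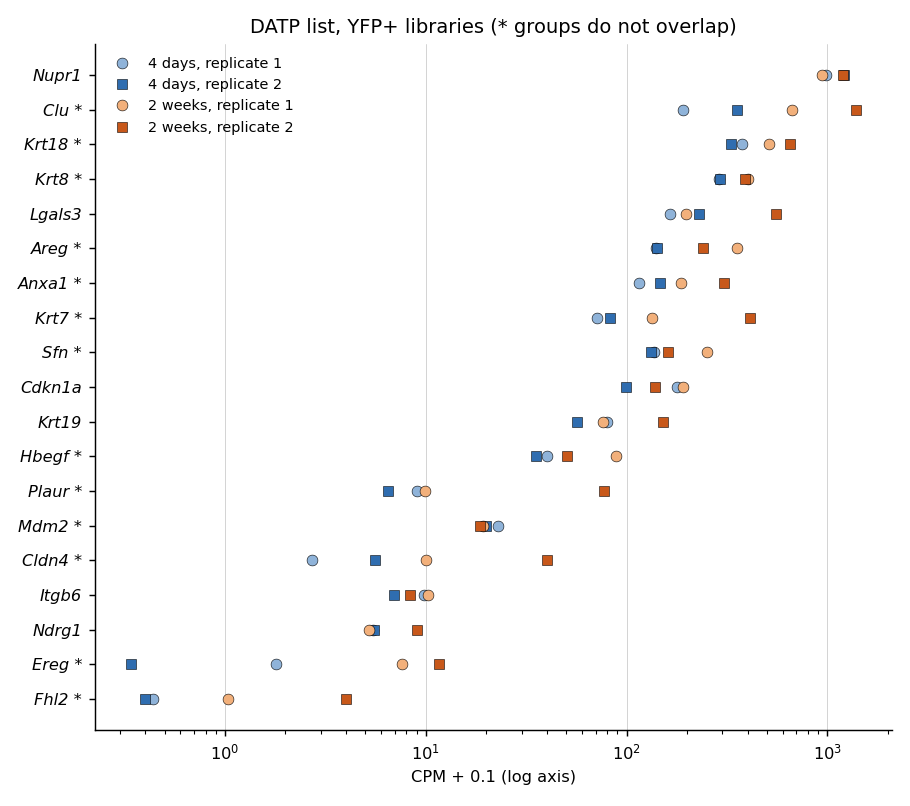
Level of each of the 19 DATP genes (CPM plus 0.1, log axis) in the 4 YFP+ libraries, with circles for replicate 1 and squares for replicate 2 of each time. Stars mark the 12 genes with both 2-week libraries above both 4-day libraries and Mdm2, with both below.

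In the mutant RFP+ cells of Red2Kras lungs the DATP list summed to 4258 and 9711 CPM at 4 days. At 2 weeks it summed to 13371 and 16880 CPM. In the YFP+ libraries it summed to 2813 and 3154, then 4059 and 5796 CPM. RFP+ replicate 1 at 4 days was thus below YFP+ replicate 2 at 2 weeks. Clu was at 385 and 2410.1 CPM in the RFP+ libraries at 4 days and 4833 and 4919 CPM at 2 weeks, Krt8 at 427 and 671 and then 1043 and 1458 CPM, and Areg at 280.2 and 574 and then 998 and 1249.6 CPM. The highest YFP+ value of each of these 3 genes at 2 weeks was below both RFP+ values at 2 weeks. The YFP+ library of Confetti lungs had 159.9 CPM of Clu, 268 of Krt8 and 112 of Areg. Whether the change over time differs between the colours was tested as an interaction in the same fit: 0 of 14856 genes passed, with 269 at an unadjusted p under 0.05, 0 called by DESeq2 and a lowest adjusted p of 0.9999. The difference of changes, YFP+ minus RFP+, was 0.11 on the log2 scale for Clu (unadjusted p = 0.92), -0.74 for Krt8 (unadjusted p = 0.14) and -0.31 for Areg (unadjusted p = 0.6). No gene can thus be called particular to the wildtype cells from these data.

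Markers of the mutant states were also higher in the YFP+ libraries at 2 weeks. The 15 genes of this list were picked with results of these libraries known, so their direction is no independent evidence, and 13 of them (86.7%) were apart and higher with a list median of 3.33. Spp1, encoding osteopontin, was at 29.7 and 11.3 CPM at 4 days and 73.2 and 244 CPM at 2 weeks (2.95 ± 1.27, unadjusted p = 0.051). Gzme, a granzyme gene, had 0, 1, 958 and 408 UMIs in the 4 libraries, which is 0 and 0.0601 and then 37.2 and 58.7 CPM and a ratio of 1189 with a counting interval of 213 to 46982. Dlk1, a Notch-family ligand, had 0, 1, 131 and 394 UMIs and 2-week levels of 5.09 and 56.7 CPM. Its ratio was 457, with an interval of 81.6 to 18078, and rested mostly on 2-week replicate 2. These intervals cover counting error only, and the UMIs of a cell are not independent. Both genes were close to absent at 4 days and present in both 2-week libraries. Itga2, an integrin chain, was at 1.95 and 2.16, then 4.97 and 23.02 CPM, Procr, the protein C receptor, at 1.19 and 0.841, then 4.58 and 63.0 CPM, and F3, the tissue factor, at 12.7 and 9.73, then 15.3 and 63.5 CPM. In these 3 genes 2-week replicate 2 stood far above the other 3 libraries. Without cells holding 3 or more UMIs of other cell types F3 overlapped, at 10.5 and 4.56, then 9.19 and 21.5 CPM. Procr was then at 0.372 and 0.147, then 0.510 and 20.6 CPM, and Itga2 at 0 and 0.736, then 2.65 and 10.1 CPM, both still apart. Mcpt2, a mast cell protease gene, had 0, 0, 277 and 16 UMIs and was at least 85.0-fold higher against the floor of 3 counts over the group. Its 2-week levels were 10.8 and 2.30 CPM, so this limit rests mostly on replicate 1, which had 0 CPM among cells called male. Cd177 was at 0.339 and 0.721, then 0.660 and 9.06 CPM, with overlapping groups. Among cells called male 5 of 14 members were apart and higher (35.7%, against 10.8% of all genes), with a list median of 3.14. Spp1 then overlapped at 65.8 and 15.3, then 15.5 and 464 CPM, and Gzme was at 0.461 CPM in 2-week replicate 1. After thinning each cell to 2000 UMIs 7 of 14 were apart and higher. Leaving out cells with 10 or more UMIs of other cell types gave 14 of 14 and a list median of 5.80. With the limit at 3 UMIs it was 12 of 14, with a median of 4.51. Without 2-week replicate 2 the list median was 1.71.

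The UMIs of these markers lay in few cells. Gzme had a UMI in 0, 1, 17 and 21 cells of the 4 libraries, and its highest count in a single cell was 252. Dlk1 had one in 0, 1, 10 and 8 cells, with up to 114 in a cell. Spp1 had a UMI in 1.26, 0.502, 0.604 and 8.44% of kept cells (exact 95% intervals reach at most 1.77 points to either side), at median depths of 5919, 6160, 5834 and 6577 UMIs per cell. Among the barcodes left out for a Ptprc UMI, the share with Spp1 was 22.99, 34.7, 37.4 and 67.8%, at median depths of 5512, 6130, 6236 and 7256 UMIs. The Spp1 share was thus higher in the leukocyte barcodes of every library, and those were most frequent in 2-week replicate 2. Without cells holding 3 or more UMIs of other cell types, Spp1 was at 0.124 and 0.294 CPM at 4 days and 50.4 and 126 CPM at 2 weeks, lower than over all kept cells in every library and still apart.

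Cells with at least 2 Gzme UMIs numbered 0 of 1826 and 0 of 2989 at 4 days, counts that allow shares of up to 0.164% and 0.10% by the floor of 3 counts, and 11 of 4306 (0.255%, exact 95% interval 0.128 to 0.457%) and 13 of 1138 (1.14%, 0.610 to 1.95%) at 2 weeks. Their median depth was 15964 and 15957 UMIs, above the medians of their libraries. All 11 and 12 of the 13 held at least 2 UMIs of Sftpc, all 11 and all 13 at least 2 of Krt7 and of Clu, and 9 and 11 at least 2 of Spp1. Only 1 cell in each library held 10 or more UMIs of markers of other cell types. Within these cells Clu reached 24039 and 8177 CPM without TMM scaling. Sftpc was at 16784 and 46458 CPM on the same scale, against 132270 and 166710 CPM in the kept cells of these libraries with fewer than 2 UMIs of the mutant state markers. The Ptprc barcodes of the 2-week libraries held a median of 7 and 0 Sftpc UMIs, so that the cut of 2 Sftpc UMIs alone does not mark a cell as AT2. In the RFP+ libraries Gzme was at 0.914 and 23.8 CPM at 4 days and 610.2 and 203 CPM at 2 weeks. Doublets were not removed and the fluorescence of single cells is not recorded in the counts, so the part of RFP+ cells or RFP+ and YFP+ doublets among them was not tested.

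**Figure D3:**
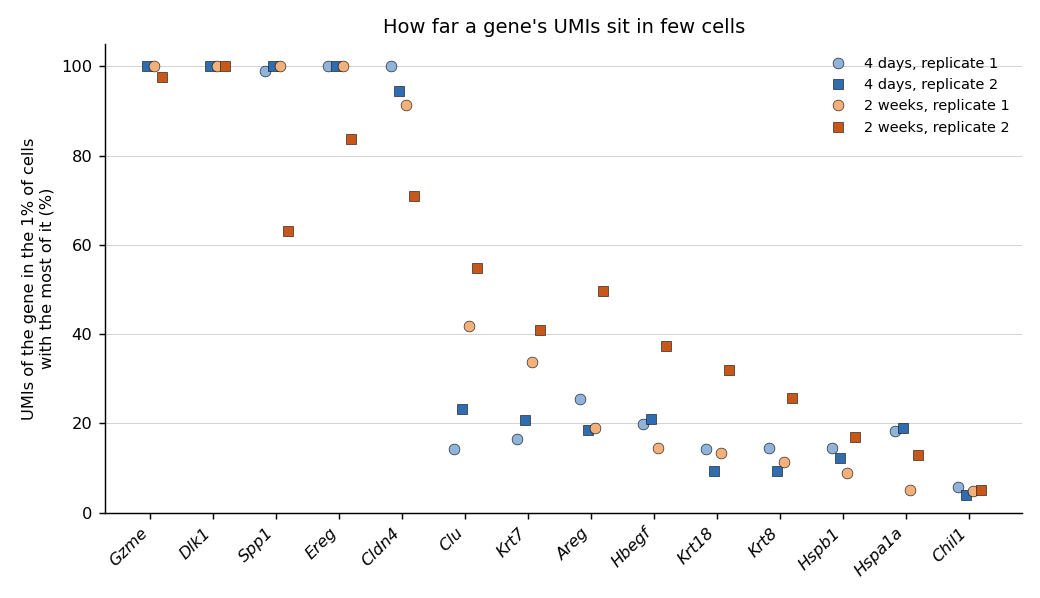
Share of a gene's UMIs (in percent) that lies in the 1% of cells of a library with the most UMIs of that gene, in the 4 YFP+ libraries. Gzme and Dlk1 sit at or near 100% wherever they were found, and the heat-shock genes Hspb1 and Hspa1a stay below 20% in all 4 libraries.

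The DATP difference rested in part on the same cells. The 1% of cells richest in DATP genes held 8.78% and 8.29% of the list's UMIs at 4 days and 15.03% and 28.0% at 2 weeks. For Clu alone the shares were 14.2, 23.2, 41.9 and 54.9%, and for Krt7 16.4, 20.7, 33.8 and 41.0%. The comparison was therefore repeated without the 56, 23, 66 and 97 cells with at least 2 UMIs of the mutant state markers (3.07%, 0.769%, 1.53% and 8.52% of their libraries), a choice made after the values were seen. Of these cells 42, 16, 20 and 54 held 10 or more UMIs of markers of other cell types. Without them 5 of the 19 DATP genes were apart and higher (26.3%, against 9.46% of all genes), all of them among the 12. Mdm2 and Ndrg1 were apart and lower, and the list median was 0.26. Of the 5 EGFR family ligands that were apart and higher, 0 remained so.

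The 5 genes that remained were Anxa1, Cldn4, Clu, Krt7 and Sfn. Clu was then at 191 and 295 CPM at 4 days and 413 and 405 CPM at 2 weeks, with the 2-week libraries close to each other. Krt7 was at 67.5 and 72.9, then 95.7 and 147 CPM. Areg, Ereg, Hbegf, Krt8, Krt18, Fhl2 and Plaur overlapped. Areg was at 135 and 137, then 319 and 90.4 CPM, where replicate 1 stayed above and replicate 2 lay below the 4-day libraries. Krt8 was at 272 and 278, then 373 and 277 CPM, with 2-week replicate 2 level with the 4-day libraries. All 12 remained apart when cells with 3 or more UMIs of other cell types were left out instead, and 7 of the 12 remained among the 241, 1113, 1660 and 423 cells called male. In those male cells 9 of the 19 DATP genes were apart and higher (47.4%, against 10.8% of all genes). The list median was then 0.99, against 0.89 over all kept cells. After thinning each cell to 2000 UMIs 8 of the 19 were apart and higher (42.1%, against 10.4% of all genes) and 2 apart and lower. Fhl2, Hbegf, Plaur and Sfn were then no longer apart and higher, and the list median was 0.66.

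**Figure D4:**
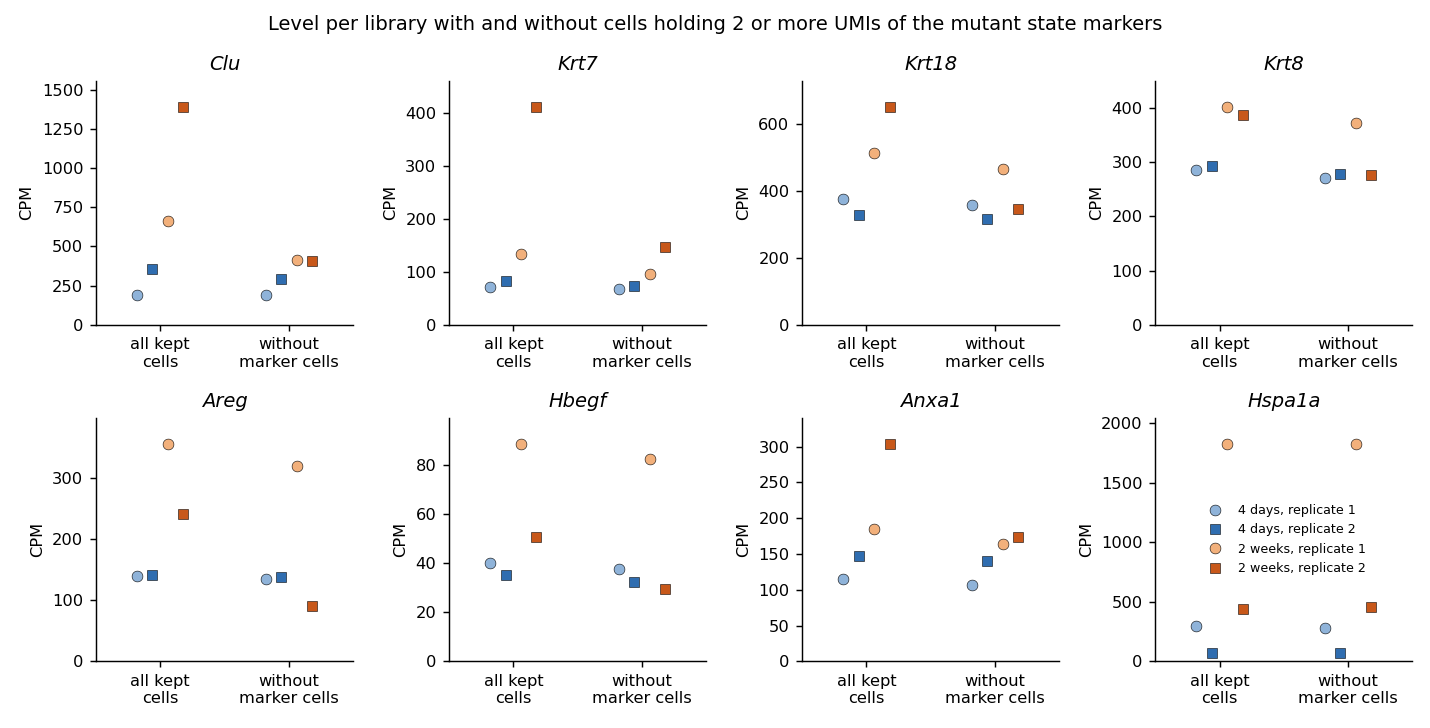
Level of 7 DATP genes and Hspa1a (CPM, linear axis from 0) in the 4 YFP+ libraries over all kept cells and without cells holding 2 or more UMIs of the mutant state markers. Without those cells the values of Clu, Krt7 and Areg in 2-week replicate 2 are lower, while those of Hspa1a are nearly the same.

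Heat-shock chaperones were the next list by the share of genes apart and higher. Of 22 members 9 were apart and higher at 2 weeks (40.9%) and 0 apart and lower, with a list median of 0.55. These proteins refold damaged proteins, and heat-shock factors switch their genes on within minutes of stress by binding inverted repeats of a short motif before the gene. The 250 bases before the start of 3 members that were apart are printed here, since several members of the list were higher together (RefSeq, GRCm38.p6, each 5′ to 3′ on the gene's own strand, with matches to GAANNTTC, which is its own reverse complement, in capitals). Hspa1a lies at chr17:34972157-34972406 and Hspa1b at chr17:34959239-34959488, both on the minus strand, and Hspb1 at chr5:135887669-135887918 on the plus strand.
Hspa1a: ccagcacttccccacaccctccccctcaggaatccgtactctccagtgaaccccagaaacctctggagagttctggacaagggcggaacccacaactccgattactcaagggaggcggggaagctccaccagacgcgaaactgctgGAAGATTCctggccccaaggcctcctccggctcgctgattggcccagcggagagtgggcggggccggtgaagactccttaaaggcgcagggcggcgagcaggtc
Hspa1b: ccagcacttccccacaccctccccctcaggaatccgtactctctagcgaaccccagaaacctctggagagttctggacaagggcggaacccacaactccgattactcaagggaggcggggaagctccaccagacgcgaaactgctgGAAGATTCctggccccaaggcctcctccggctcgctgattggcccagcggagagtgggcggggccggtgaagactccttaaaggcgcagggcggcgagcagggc
Hspb1: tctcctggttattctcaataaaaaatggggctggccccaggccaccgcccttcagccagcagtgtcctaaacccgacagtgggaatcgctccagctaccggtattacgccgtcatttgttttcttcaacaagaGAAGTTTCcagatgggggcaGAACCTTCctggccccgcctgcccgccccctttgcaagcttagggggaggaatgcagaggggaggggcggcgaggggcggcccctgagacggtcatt
The match began 104 bases before the start in both Hspa1a and Hspa1b, and 117 and 97 bases before it in Hspb1. Of the 22 members 16 had a RefSeq promoter entry, and 6 of the 16 (37.5%) held the motif in this window, against 2088 of 27025 genes (7.73%). Among the other members apart, Hspd1 and Hspe1 held a match in their overlapping windows and Dnajb1 and Stip1 held none, while Dnaja1, whose groups overlapped, held one. A match is a sequence feature and no measurement of factor binding.

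Hspa1a, the inducible HSP70, was at 301 and 70.0 CPM at 4 days and 1827 and 440.0 CPM at 2 weeks (log2 difference 2.61 ± 0.99, unadjusted p = 0.032). Its near-identical copy Hspa1b was at 278 and 62.8, then 1877 and 339 CPM (2.70 ± 1.14), and reads of the pair may be split between them. In both, 2-week replicate 1 stood well above the rest and 2-week replicate 2 only slightly above 4-day replicate 1. Hspb1, the small chaperone HSP27, was at 417 and 196, then 2389.9 and 520.4 CPM (2.25 ± 1.07), and Dnajb1, a co-chaperone of HSP70, at 79.2 and 41.0, then 431 and 97.3 CPM (2.14 ± 0.87). Hspa8, the constitutive HSP70, was at 752 and 499, then 1466 and 864 CPM (0.90 ± 0.36, unadjusted p = 0.04).

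Hspe1, Cryab, Hspd1 and Stip1 were more even between the replicates. Hspe1, the mitochondrial HSP10, was at 221 and 342 CPM at 4 days and 684 and 439.6 CPM at 2 weeks (1.00 ± 0.40, unadjusted p = 0.04). Cryab, a small chaperone related to lens crystallins, was at 78.1 and 74.6, then 144 and 172 CPM (1.05 ± 0.32, unadjusted p = 0.012). Hspd1, the partner of Hspe1, was at 73.4 and 70.4, then 129.6 and 82.7 CPM, and Stip1 at 28.4 and 29.7, then 40.1 and 33.1 CPM. Hsp90ab1 overlapped at 689 and 433, then 784 and 689 CPM. Over the list the levels summed to 4379.9 and 2925, then 12277 and 4854 CPM, with 3478 CPM in the Confetti YFP+ library. Only 2-week replicate 1 stood clear of the other libraries in this sum, and without it the list median was 0.09 instead of 0.55.

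Chaperone UMIs were less concentrated than those of the mutant state markers: the 1% of cells richest in each list held 7.31%, 3.93%, 4.59% and 8.99% of the chaperone UMIs in the 4 libraries and 63.8%, 84.3%, 94.5% and 51.7% of those of the markers. Hspa1a had a UMI in 37.0, 18.1, 86.6 and 46.0% of cells in the 4 libraries, and in 23.5, 8.37, 76.3 and 31.5% after each cell was thinned to 2000 UMIs, which left out 8, 1, 7 and 0 cells (exact 95% intervals reach at most 2.95 and 2.79 points). In the Ptprc barcodes of the same libraries the shares with a UMI were 26.4, 9.90, 56.1 and 15.8%. Without the cells with mutant state markers 7 of the 9 chaperones remained apart, and all but Hspd1 and Stip1 were among them. Among cells called male 3 of the 22 chaperones were apart and higher (13.6%, against 10.8% of all genes), all of them among the 9, and Hsf1, a heat-shock factor, was apart and lower. The list median among these cells was 0.49, against 0.55 over all kept cells, so fewer members were apart at a similar median. In the same cells Hspa1a was at 564 and 65.9 CPM at 4 days and 2000.4 and 460.3 CPM at 2 weeks, with overlapping groups. Sex composition moved with the replicates here, and its part in the result was not tested.

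Immediate-early genes, which respond to growth signals and to handling of cells, leaned the same way. Of 26 genes 5 were apart and higher (19.2%) and 0 were apart and lower. Egr1 was at 102 and 36.9 CPM at 4 days and 496 and 104.6 CPM at 2 weeks (2.11 ± 0.81, unadjusted p = 0.033), and Btg2, an antiproliferative gene, at 131 and 115, then 229.6 and 175 CPM (0.71 ± 0.26, unadjusted p = 0.025). Egr1 overlapped without cells holding mutant state markers, at 79.7 and 32.3, then 483 and 70.9 CPM. It also overlapped among cells called male, after thinning and with at least 2000 genes and at most 30000 UMIs per cell. Without cells holding 3 or more UMIs of other cell types it stayed apart. Jund was at 1037 and 1238, then 1978 and 1475 CPM, and Egr2 and Fosl1 were the other members apart. The abundant Fos, Jun and Atf3 overlapped, and Fos was at 699 and 587, then 1433 and 531 CPM. In Egr1 and Fos the highest value was that of 2-week replicate 1, which was also highest in the summed chaperones. The list median of 0.42 was -0.14 without that library. Tissue was digested at 37 °C before sorting, and the part of dissociation in these genes was not tested.

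**Figure D5:**
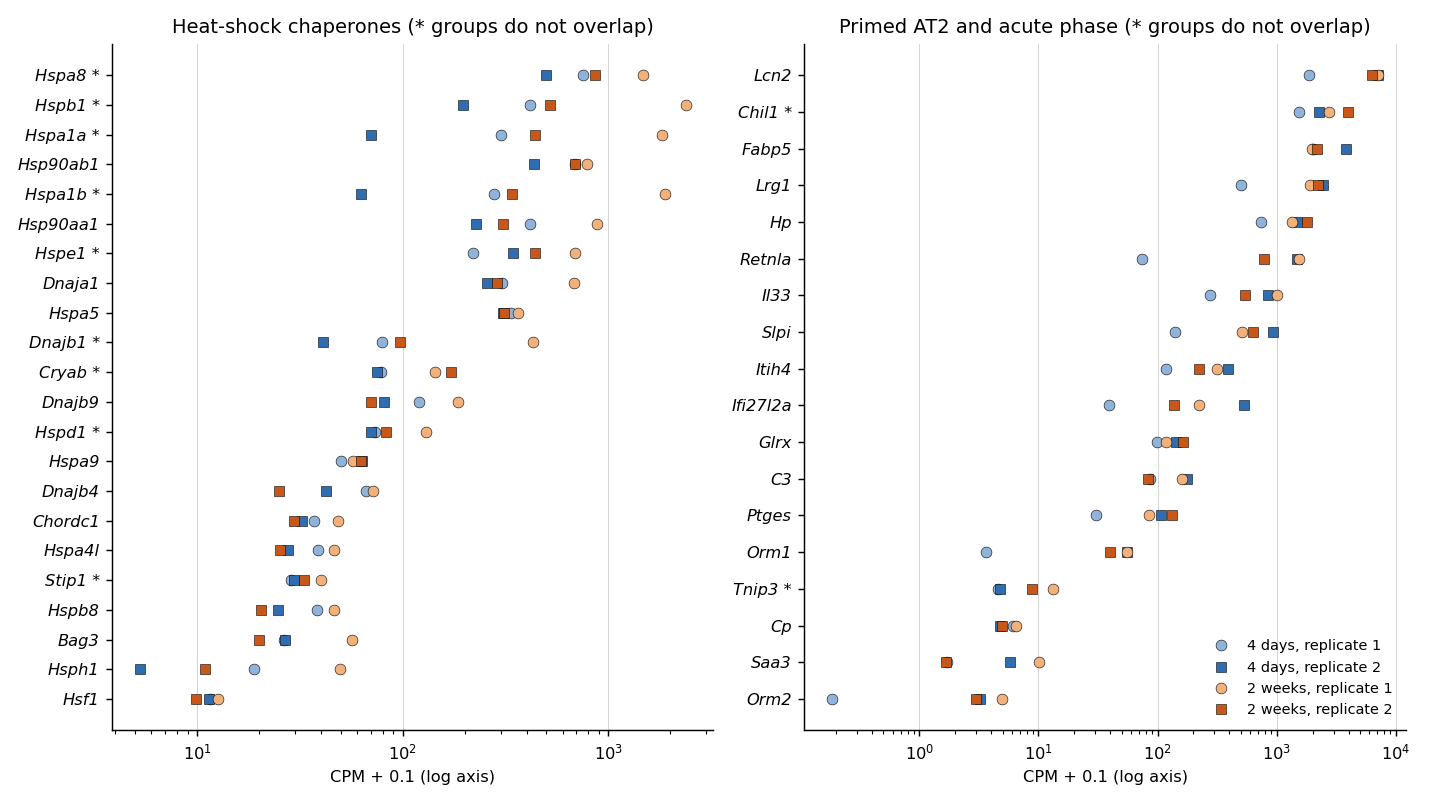
Level of heat-shock chaperones (left) and of primed AT2 and acute-phase genes (right) in the 4 YFP+ libraries (CPM plus 0.1, log axis), with stars for genes whose groups do not overlap. For most chaperones 2-week replicate 1 lies farthest right, and for most primed AT2 genes 4-day replicate 1 lies farthest left.

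Primed AT2 and acute-phase genes were set apart by a single 4-day library. Of 18 genes 2 were apart and higher at 2 weeks (11.1%, against 9.85% of all genes), and with at least 2000 genes and at most 30000 UMIs per cell 6 were (33.3%, against 12.8%), Lcn2 and Lrg1 among them. Chil1, a chitinase-like protein, was at 1543 and 2272 CPM at 4 days and 2754 and 3940.3 CPM at 2 weeks (0.81 ± 0.37, unadjusted p = 0.065), and Tnip3, an inhibitor of NF-kB signalling, at 4.49 and 4.62, then 13.05 and 8.78 CPM (1.27 ± 0.48, unadjusted p = 0.031). After thinning each cell to 2000 UMIs 1 of 18 was apart and higher (5.56%, against 10.4% of all genes), and Tnip3 was not. Tnip3 was also not apart and higher without cells holding mutant state markers, where 3 of 18 genes were (16.7%, against 9.46% of all genes). Lcn2, which binds bacterial iron carriers, was at 1874 and 7102, then 7067 and 6309 CPM (0.58 ± 0.61), and Lrg1, a secreted acute-phase glycoprotein, at 499 and 2429, then 1890.5 and 2204 CPM (0.48 ± 0.71). Retnla, a resistin-like protein, was at 73.6 and 1476, then 1543 and 782 CPM, and Il33, an alarmin, at 277 and 838, then 996 and 544 CPM. In Lcn2, Lrg1, Retnla and Il33, 4-day replicate 1 was the lowest library and 4-day replicate 2 lay among the 2-week values or above them. Fabp5, a fatty acid carrier, was at 2028 and 3783, then 1992 and 2161 CPM, with 4-day replicate 2 highest.

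The list summed to 7561 and 21739 CPM at 4 days and 19102 and 19179.6 CPM at 2 weeks. The Confetti YFP+ library had 7438 CPM and the RFP+ libraries 7436 and 10066 CPM at 4 days. The list median of 0.50 became -0.10 without 4-day replicate 1 and 1.65 without 4-day replicate 2, so that the sign rests on the first of them. Lrg1 had a UMI in 31.5, 87.7, 75.9 and 69.2% of cells thinned to 2000 UMIs and in 49.0, 95.2, 85.3 and 78.8% of cells without thinning, against 26.4, 16.8, 33.1 and 36.2% of the Ptprc barcodes (intervals of at most 2.77, 2.49 and 10.5 points). The library low in Lcn2 and Lrg1 was also the one with 83.7% female cells and the most endothelial and mesenchymal UMIs. Among cells called male the 4-day libraries had 1994 and 7012 CPM of Lcn2 and 373 and 2334 CPM of Lrg1. Without cells holding 3 or more UMIs of other cell types they had 2108 and 7104 CPM of Lcn2 and 581 and 2474 CPM of Lrg1. In both settings 4-day replicate 1 was the lowest library, and beyond these values the part of either was not tested.

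Inflammatory signal lists had more genes apart and higher than lower, and no member passed the test. Of the NF-kB list 6 of 27 were apart and higher (22.2%) and 0 lower, with a median of 0.15. Cxcl2 and Cxcl1, neutrophil chemokines, were at 13.6 and 27.0 CPM at 4 days and 63.4 and 37.6 CPM at 2 weeks and at 13.9 and 18.3, then 50.5 and 23.7 CPM. The inhibitor Nfkbia was at 284 and 144, then 240.0 and 121 CPM (-0.24 ± 0.55), with replicate 1 above replicate 2 at both times and overlapping groups. Icam1, Sod2 and Nfkbiz overlapped. Among chemokines and colony-stimulating factors 6 of 24 were apart and higher and 1 lower, and Cxcl16 was at 45.8 and 42.3, then 53.6 and 56.3 CPM. Without cells holding mutant state markers 3 of 24 were higher (12.5%, against 9.46% of all genes), and Cxcl1 overlapped at 13.6 and 17.0, then 47.1 and 13.4 CPM. Il1r1, the interleukin-1 receptor, was at 18.0 and 8.71, then 12.5 and 10.5 CPM (-0.21 ± 0.44), with 4-day replicate 1 highest. In the interleukin-1 family 3 of 18 were apart and higher and 1 lower.

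Interferon response genes were lower at 2 weeks where they were apart, but this depended on the cells kept. Of 29 interferon response genes 0 were apart and higher and 7 were apart and lower (24.1%), with a median of -0.15. Ifitm3, which blocks virus entry, was at 258 and 287 CPM at 4 days and 179 and 171 CPM at 2 weeks (-0.64 ± 0.40). Ifit1 was at 4.57 and 3.42, then 2.14 and 1.01 CPM (-1.30 ± 0.68), and Ifi47, Oasl2, Gbp3, Ifit3 and Ifi44 were the others. Both 2-week libraries were close in Ifitm3. Without cells holding mutant state markers 1 of 29 was apart and lower (3.45%, against 11.7% of all genes). Without cells holding 3 or more UMIs of other cell types 0 were lower (against 11.9%) and 1 was higher. With at least 2000 genes and at most 30000 UMIs per cell 5 of 27 were higher (18.5%, against 12.8%) and 8 lower (29.6%, against 11.1%). Among cells called male 1 of 26 was higher and 10 were lower (38.5%, against 10.6%). After thinning each cell to 2000 UMIs 0 of 27 were higher and 11 lower (40.7%, against 11.3%). The list median was 0.08 without 4-day replicate 2. Antigen presentation genes had no common direction. Of 12 class II genes 5 were apart and lower and 2 higher: H2-Aa was at 1205 and 1025, then 873 and 994 CPM, and Ciita, which drives class II transcription, at 14.2 and 15.4, then 12.5 and 12.1 CPM. Cd74, the class II invariant chain, overlapped at 6547 and 7065, then 6011 and 7579 CPM. In class I presentation 1 of 18 was apart and higher and 1 lower, and H2-K1 was at 962 and 1991, then 1764 and 1497 CPM.

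Proliferation genes did not separate the times. In the S phase list 0 of 27 and in the G2 and mitosis list 0 of 30 were apart in either direction, with medians of -0.23 and -0.66. Mki67, a marker of cycling cells, was at 9.91 and 31.6 CPM at 4 days and 15.2 and 10.5 CPM at 2 weeks, and Ube2c, a mitotic ubiquitin carrier, at 28.6 and 156, then 70.5 and 36.0 CPM. Mitotic genes summed to 286 and 985, then 510.4 and 317 CPM, so that 4-day replicate 2 was highest and 4-day replicate 1 lowest. Without 4-day replicate 2 the mitotic median was 0.48 and the S phase median 0.46, and without 4-day replicate 1 the S phase median was -0.73. Of the p53 and cell cycle inhibitor list 3 of 20 were apart and higher and 1 lower. Cdkn2a, encoding the inhibitors p16 and ARF, was at 0.678 and 0.3003, then 2.80 and 10.2 CPM (3.72 ± 1.04, unadjusted p = 0.0083), low in all 4 libraries. It had a UMI in 3, 3, 13 and 26 cells and overlapped without cells holding mutant state markers, at 0.357 and 0.3004, then 0.0791 and 3.13 CPM.

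Of the signalling lists of the alveolar niche, the FGF and Wnt lists had the larger shares of genes apart and lower, 30.8% and 20.7% against 11.4% of all genes. Their medians were -0.36 and -0.26, and -0.03 and -0.11 without 4-day replicate 1. The Notch median was -0.45, and 0.37 without that library. Without cells holding mutant state markers 1 of 10 FGF genes was apart and lower (10.0%, against 11.7% of all genes). The same count was found after thinning (against 11.3%) and with at least 2000 genes and at most 30000 UMIs per cell (against 11.1%). Of the Wnt genes 4 were higher and 4 lower without cells holding 3 or more UMIs of other cell types, and 3 and 3 after thinning. Over all kept cells, on the Wnt list 6 of 29 were apart and lower and 2 higher: Axin2, a target of the pathway, was at 12.96 and 7.93 CPM at 4 days and 9.47 and 5.04 CPM at 2 weeks, with overlapping groups, and Ctnnb1, encoding beta-catenin, at 427 and 489, then 407 and 430.5 CPM. In the Notch list 2 of 20 were lower and 1, Dlk1, was higher, and of the lower ones Hes1, a target, was at 153 and 159.8, then 112 and 115 CPM (-0.46 ± 0.22), and Notch2, a receptor, at 79.2 and 99.3, then 63.7 and 70.2 CPM. In the FGF list 4 of 13 were lower and 2 higher, and Fgfr2, the receptor on AT2 cells, was at 204 and 186, then 169 and 119 CPM. ERK feedback genes were divided, with 4 of 24 higher and 4 lower. In TGF-beta, activin and BMP signalling 1 of 29 was higher and 1 lower. Among Spp1 receptors and integrins 4 of 14 were higher, including Spp1 itself, and 1 was lower, and Cd44, a receptor for osteopontin, was at 73.4 and 104, then 104.8 and 117 CPM. When cells holding mutant state markers were left out 1 of 14 was higher (7.14%, against 9.46% of all genes). The 4 genes named by the first count, Cd44, Itga3, Itgb4 and Spp1, were then no longer apart and higher.

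The counts of metabolic, stress and housekeeping lists are given here to be read against the 9.85% of all genes apart and higher and the 11.4% apart and lower. For sterol synthesis 2 of 23 were apart and higher and 0 lower, and Pmvk, a kinase of the mevalonate pathway, was at 185 and 267 CPM at 4 days and 427 and 439.7 CPM at 2 weeks (0.94 ± 0.30, unadjusted p = 0.016). For fatty acid synthesis and lipid storage 2 of 25 were higher and 3 lower, and Scd1, a desaturase, was at 4943 and 9561, then 6775 and 7770.0 CPM. Glycolysis and hypoxia genes had 4 of 24 higher and 0 lower. Without cells holding mutant state markers 1 of 23 was higher and 1 lower (4.35% each, against 9.46% and 11.7% of all genes). The ATF4 list had 5 of 20 higher and 3 lower, with Cebpb, a factor of the acute-phase response, at 229 and 196, then 327 and 466 CPM (0.90 ± 0.31, unadjusted p = 0.021). Without cells holding 3 or more UMIs of other cell types Cebpb was at 208 and 165, then 308 and 243 CPM, still apart and higher. Endoplasmic reticulum stress genes had 3 of 18 higher and 5 lower, and detoxification genes 3 of 24 higher and 1 lower. Of 80 ribosomal proteins 4 were lower and 0 higher, of 77 respiratory chain subunits 1 was higher and 0 lower, and of 7 resistin-like and chitinase-like genes 1, Chil1, was higher.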

How the data were processed

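The authors deposited matrices of raw UMI counts (molecules per gene in each barcode) aligned to GRCm38. The submitters' processing notes give Cell Ranger 3.1.0, FastQC 0.11.3 and MultiQC 1.8. Gene positions were taken from GENCODE M21 (GRCm38). From the counts, barcodes were kept as stated in the report, mitochondrial genes were left out, doublets were not removed, and UMIs were summed per library.

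All 10 libraries, in 6 groups, entered 1 model in edgeR (version 4.0.16, under R 4.3.3) with filterByExpr, TMM scaling and the two-sided quasi-likelihood test at an adjusted p under 0.05. DESeq2 1.42.0 was an alternative. CPM are these counts scaled by TMM library sizes. The script was tested on simulated data.

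Named genes were the 10 per direction of smallest p with a mean of at least 5 CPM and libraries apart (none was called), the 4 most abundant members of each list and a fixed set of 13. Of the genes chosen as higher, 1 is not reported here. Other members were named after their values were seen. The members and lists were chosen with earlier results of these data known. Marker lists of 16 cell types and classes were used to describe the libraries. Those not given in the report summed, in library order, to 26.7 and 39.8, then 19.5 and 106 CPM for C1q macrophages, 35.7 and 39.1, then 22.9 and 34.5 for neutrophils, 64.3 and 64.8, then 46.9 and 77.7 for lymphocytes, 359.8 and 129.6, then 143 and 291 for ciliated cells, 2.03 and 1.32, then 1.71 and 3.74 for basal cells, 2.03 and 0.781, then 1.59 and 33.4 for neuroendocrine cells, 5.51 and 0.841, then 11.9 and 12.2 for mesothelial cells, 827 and 0.240, then 588 and 7.63 for erythroid cells, and 33.8 and 27.3, then 24.8 and 27.5 for platelets. Intervals are exact at 95%, floors are 3 counts, and both cover counting error only. Replicates of a group differed beyond sampling noise (chi-square per degree of freedom 75.7 at 4 days and 64.6 at 2 weeks). Alternatives covered the test, scaling, filters on counts and cells, other cell types, thinning, sex, each library in turn and, added after the data were seen, cells with mutant state markers.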

Additional observations from a re-analysis of the deposited data

Results flagged for a closer look

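Barcodes with a Ptprc UMI, which enter no comparison, made up 4.55% and 3.27% of those passing the quality limits at 4 days and 3.13% and 34.8% at 2 weeks, against 1.34% in the Confetti YFP+ library, although cells were sorted as EpCAM+YFP+. They numbered 87, 101, 139 and 608, and 86.2%, 97.0%, 89.2% and 99.2% of them held 10 or more UMIs of alveolar macrophage markers.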

How the results depend on the processing

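The count of genes called between 2 weeks and 4 days was 0 in the test as reported and in 17 of 19 alternatives, with 4 called by DESeq2 and 29 without a filter on low counts, all of them higher at 2 weeks. The 29 were also tested in the fit as reported, and held 36 to 2203 UMIs each over the 4 libraries, 5 of them with none at 4 days. Leaving out each library in turn gave 0 to 0 calls, with 86 to 580 genes at an unadjusted p under 0.05. These fits leave 1 library at that time, which is assumed to vary like the other groups, so they say little about stability. The count of genes whose change differed between YFP+ and RFP+ cells was 0 in all 22 alternatives. With the replicate number as a block the call count was 0 for both comparisons, with 496 and 548 genes at an unadjusted p under 0.05. Deviations of same-numbered libraries correlated at 0.198 between the YFP+ groups, 0.261 between the RFP+ groups and 0.0892 to 0.567 between YFP+ and RFP+ groups, with only 2 replicate numbers. Libraries were made on 2 days, and which was made on which day is not given in the sources used here.

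Of 605 log2 differences of 32 named genes under alternatives, 585 kept their direction and side of the threshold, 7 passed it (Dlk1 and Gzme under DESeq2 and without a filter on low counts, and Il18, Tff1 and Gm26825 without that filter) and 13 changed sign. Without the Ptprc filter Acap2 became 0.072, Sftpc -0.26 and Mki67 0.0034. Il1r1 became 0.047 with at least 2000 genes and at most 30000 UMIs and 0.20 among cells called male. Leaving out 1 library at a time, Sftpc ran from -0.15 (without 2-week replicate 2) to 0.19 and was -0.083 without 4-day replicate 1. Lcn2 ran from -0.086 (without 4-day replicate 1) to 1.83, and Lrg1 from -0.25 (without the same library) to 2.04. Nfkbia ran from -0.82 to 0.33 (without 4-day replicate 1) and was 0.17 without 2-week replicate 2. Il1r1 ran from -0.64 to 0.41 (without 4-day replicate 1), and Mki67 from -1.29 to 0.38 (without 4-day replicate 2). The causes were not tested. Of 608 list medians 15 moved beyond their spread, among them the G2 and mitosis median (0.48 without 4-day replicate 2) and the chemokine median (1.43 without it). With 2 libraries a time, precision is set by the spread between libraries more than by depth.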

Other observations

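Genes of the circadian clock were looked at because Nr1d1 was among the genes of smallest p. They were picked after its value was seen and are not a list with a test. Nr1d1 was at 24.3 and 14.1 CPM at 4 days and 10.3 and 7.19 CPM at 2 weeks, and in the RFP+ libraries at 25.4 and 32.4 and then 8.90 and 6.07 CPM, so that both 2-week libraries were below both 4-day libraries in either colour. Arntl, the positive regulator BMAL1, was at 21.3 and 19.6, then 17.4 and 15.3 CPM, and Npas2, its partner, at 17.2 and 15.97, then 13.6 and 9.93 CPM. Nr1d2 was at 13.2 and 6.37, then 6.52 and 5.04 CPM, with overlapping groups. Per1, Per2, Per3, Dbp, Tef and Ciart overlapped as well. The hour of collection is not given in the sources used here.

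Erythroid markers summed to 827 and 0.240 CPM at 4 days and 588 and 7.63 CPM at 2 weeks, high in both replicates 1 and low in both replicates 2. Scgb1a1, the airway club cell secretoglobin, was at 9274 and 7178, then 2142 and 17178 CPM, with no order by time.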
